A study of Homo sapiens with 50 samples.

Results

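H1, an established line of human embryonic stem cells, was taken through a culture labelled as cardiac differentiation, and RNA of the differentiation control was sequenced on day 7 and on day 11. The control is wild type and its labels name no added agent, and the design text describes the series as mesendoderm differentiation, spontaneous or driven by a WNT inhibitor, under changed pH. Each day has 2 libraries, and nothing in the labels says that they came from separate cultures, so p-values measure only spread between libraries. That spread was estimated over all 26 libraries of days 0, 7 and 11, treated cultures included, and not from the 4 control libraries alone. The question followed here is which transcripts changed in the control over those days. Of 57905 genes listed, 18451 passed the filter of the fit over all 26 libraries of days 0, 7 and 11, and the 14923 described here reached at least 1 FPKM, fragments scaled by gene length and library size, in at least 2 of the 4 control libraries. For the last comparisons, the change of the control was set against the change between the same days in wild type H1 cultures with IWP2, which blocks the secretion of WNT ligands, with the acid HCl or with the base NaHCO3. Each of these 3 treatments also has 2 libraries per day. The fit also held undifferentiated cells of day 0 and cultures with IWP2 and NaHCO3 together, without or with 2-DG. The cultures with these joint treatments are not described here. The labels give no dose, time of addition or pH reading, and no cell sort.

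When pluripotent cells leave that state they first form mesendoderm, a transient layer from which both mesoderm and endoderm arise. Heart muscle, epicardium, smooth muscle, endothelium and fibroblasts come from mesoderm, while liver, gut and the lining of the yolk sac come from endoderm. Heart muscle cells are recognised by the contractile proteins of the sarcomere and by ion channels that set their beat. Fetal hepatocytes and yolk sac endoderm both secrete plasma proteins such as alpha-fetoprotein and the apolipoproteins, so a transcript of that kind does not by itself tell these tissues apart.

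The 4 control libraries held 17572470 and 20445875 counts on day 7 and 19561618 and 17849754 on day 11. The share of counts from the mitochondrial genome was 3.81% to 3.95%. Levels correlated at 0.994 between the libraries of day 7, at 0.9924 between those of day 11, and at no more than 0.9556 between days. The cell type is labelled ESC, but the defining pluripotency transcripts were near or at 0: POU5F1 was at 0.89 and 1.12 FPKM on day 7 and 0.07 and 0.04 on day 11, and NANOG had 0 counts in all 4 libraries. Markers of heart muscle (TNNT2, MYL7), liver or yolk sac (AFP, APOA1), fibroblasts (COL3A1, LUM), smooth muscle (ACTA2), epicardium (WT1) and vessels (KDR, TEK) were all present on both days. Some other defining markers of these types were low. On day 7 ALB was at 0.88 and 1.51 FPKM, CDH5 at 0.67 and 0.43 and MSLN at 0.47 and 0.13. Over both days MYH11 reached at most 0.21 FPKM and ERG at most 0.32. Transcripts used as markers of several cell types were thus present in each library, which does not show that each type was. In such bulk RNA a change in the number of cells of a type and a change in RNA per cell cannot be told apart, and this holds for every result below.

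Here a gene rose or fell if edgeR's quasi-likelihood test gave it an adjusted p (Benjamini-Hochberg) below 0.05 and a log2 fold change of 1 or more in size. Values after ± are standard errors of log2 fold changes. By that rule 1038 genes rose (6.96% of the 14923) and 376 fell (2.52%) from day 7 to day 11, and together they make 9.48%. By 4-fold or more, 371 genes rose and 78 fell. The median log2 fold change over all 14923 genes was 0.003. For each called gene, both libraries of one day lay above both of the other. Such separation was common beyond the called genes. Of all 14923 genes, 5486 had both libraries of day 11 above both of day 7, and 5361 had both below. Without the size rule, 3195 genes (21.4%) had an adjusted p under 0.05 and a higher level on day 11, and 2695 (18.1%) a lower one. The entry rule favours change in genes seen on one day: 429 of the 594 genes that reached 1 FPKM in both libraries of day 11 and in neither of day 7 rose, and 146 of the 352 with the opposite pattern fell. Among the 12935 genes at 1 FPKM or more in all 4 libraries, 532 rose and 201 fell. Near the edge of the entry rule, 358 genes had a second highest value from 1 to under 1.1 FPKM. Of all genes listed, 395 just outside had one from 0.9 to under 1. Under a limma test on log2(FPKM + 1), which shrinks the change of low genes, 604 rose and 218 fell.

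**Figure D1:**
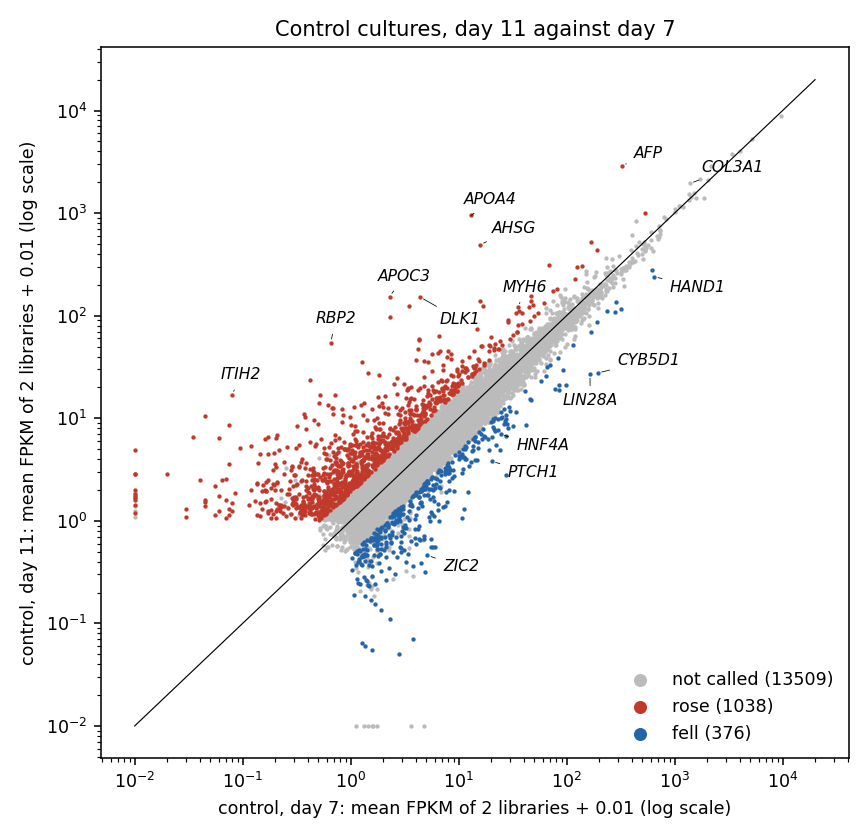
Mean FPKM of the 2 control libraries of day 7 plus 0.01 (x axis, log scale) against that of day 11 (y axis, log scale) for each of the 14923 genes, with called genes coloured. The 1038 genes that rose lie above the diagonal and outnumber the 376 that fell below it.

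Among the lists with 8 or more members, that of secreted plasma proteins had the largest share of risen genes. Of its 22 members 20 rose, and the median log2 fold change was 2.25 (range 0.01 to 8.73). Their summed level went from 1041 and 1082 FPKM to 4656 and 5557 FPKM. AFP (ENSG00000081051), alpha-fetoprotein, the main plasma protein of the fetus, was at 317 and 336 FPKM on day 7 and 2635 and 3158 on day 11, which made it one of the 5 most abundant transcripts of day 11 (log2 fold change 3.22 ± 0.63, adjusted p = 0.00103). ALB, albumin, lies directly upstream of AFP on chromosome 4 (chr4:74262831-74287129 and chr4:74296855-74321891, GRCh37) and stayed far lower, at 0.88 and 1.51 FPKM on day 7 and 4.38 and 4.10 on day 11 (log2 fold change 1.88 ± 0.54, adjusted p = 0.0135). The rise of ALB lost its call without the first library of day 7 (adjusted p = 0.118) or of day 11 (adjusted p = 0.0523). AHSG, the glycoprotein fetuin-A, was at 15.0 and 16.6 FPKM on day 7 and 455 and 527 on day 11 (log2 fold change 5.03 ± 0.69, adjusted p = 4.31e-05). SERPINA1, the inhibitor of neutrophil elastase, was at 65.6 and 70.5 FPKM on day 7 and 289 and 333 on day 11 (log2 fold change 2.26 ± 0.42, adjusted p = 0.000704). TTR, transthyretin, which carries thyroid hormone and retinol-binding protein, was at 193 and 192 FPKM on day 7 and 398 and 476 on day 11 (log2 fold change 1.26 ± 0.26, adjusted p = 0.00201). RBP4, the retinol-binding protein itself, was at 137 and 143 FPKM on day 7 and 279 and 329 on day 11 (log2 fold change 1.18 ± 0.35, adjusted p = 0.0157), and lost the call without either library of day 7 (adjusted p = 0.0952 and 0.0819) or the second of day 11 (0.0868). In each of these genes both libraries of day 11 lay above both of day 7.

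Several plasma protein genes went from nearly no reads to clear signal. ITIH2, a heavy chain of the inter-alpha-trypsin inhibitor, had 9 counts in all on day 7 and 2122 on day 11, a ratio of 240.0 per library total (95% counting interval 126.0 to 525.0). FETUB, fetuin-B, had 5 and 652 counts, a ratio of 133.0 (56.5 to 409.0), and KNG1, kininogen, 4 and 349, a ratio of 88.7 (34.3 to 327.0). SERPINA7, the thyroxine-binding globulin, had 4 and 471 counts, a ratio of 120.0 (46.4 to 441.0). These intervals are exact, from the binomial share of the counts, and cover counting error only. ORM1, an acute phase glycoprotein, and APOH, which binds phospholipids, had 0 counts in both libraries of day 7. Against a floor of 3 counts per library they were at least 20.2-fold and at least 14.0-fold higher on day 11, where ORM1 had 43 and 69 counts and APOH 35 and 43. TF, transferrin, the iron carrier of plasma, was at 0.13 and 0.17 FPKM on day 7 and 6.02 and 6.65 on day 11 (log2 fold change 5.46 ± 0.52, adjusted p = 1.08e-06). A2M, alpha-2-macroglobulin, was at 0.55 and 0.44 FPKM on day 7 and 13.1 and 15.0 on day 11 (log2 fold change 4.91 ± 0.58, adjusted p = 1.09e-05).

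The 3 fibrinogen chains, whose genes lie side by side on chromosome 4, did not move alike. FGB (chr4:155484108-155492238), the beta chain, was at 201 and 205 FPKM on day 7 and 181 and 229 on day 11, with overlapping groups (log2 fold change 0.08 ± 0.25, adjusted p = 0.853). FGA (chr4:155504278-155511918), the alpha chain, was at 43.5 and 46.4 FPKM on day 7 and 107 and 135 on day 11 (log2 fold change 1.496 ± 0.35, adjusted p = 0.00384). FGG (chr4:155525286-155534119), the gamma chain, was at 4.28 and 4.24 FPKM on day 7 and 53.6 and 66.2 on day 11 (log2 fold change 3.88 ± 0.38, adjusted p = 2.97e-06). FGA and FGG rose and FGB did not pass the test. By FPKM, which is per length, the level of FGB stood highest of the 3 on both days. A similar split was seen in the apolipoprotein cluster of chromosome 11. APOA4 (chr11:116691419-116694022), made by gut and yolk sac, was at 13.3 and 12.98 FPKM on day 7 and 873 and 1026 on day 11 (log2 fold change 6.24 ± 0.89, adjusted p = 9.54e-05). APOC3 (chr11:116700422-116703788), an inhibitor of lipoprotein clearance, was at 1.97 and 2.60 FPKM on day 7 and 138 and 170.1 on day 11 (log2 fold change 6.12 ± 0.50, adjusted p = 5.18e-07). APOA1 (chr11:116706467-116708666), the main protein of high-density lipoprotein, was already at 396 and 411 FPKM on day 7 and reached 567 and 670 (log2 fold change 0.69 ± 0.23, adjusted p = 0.0305), which missed the size rule.

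Of the apolipoprotein and lipoprotein assembly list, 5 of 12 rose (median log2 fold change 0.56). APOB, the structural protein of very low-density lipoprotein, was at 83.2 and 80.6 FPKM on day 7 and 178 and 184 on day 11 (log2 fold change 1.21 ± 0.32, adjusted p = 0.00881), and lost the call without either library of day 7 (adjusted p = 0.0533 and 0.062). LIPC, hepatic lipase, was at 1.68 and 1.82 FPKM on day 7 and 9.51 and 10.6 on day 11 (log2 fold change 2.58 ± 0.17, adjusted p = 1.95e-12). APOA2, a further protein of high-density lipoprotein, was at 448 and 437 FPKM on day 7 and 442 and 514 on day 11 (log2 fold change 0.18 ± 0.24, adjusted p = 0.623). APOE, a ligand of lipoprotein receptors, was at 609 and 613 FPKM on day 7 and 435 and 488 on day 11 (log2 fold change -0.34 ± 0.10, adjusted p = 0.0103). MTTP, which loads lipid onto APOB, was at 29.9 and 30.0 FPKM on day 7 and 15.1 and 16.7 on day 11 (log2 fold change -0.84 ± 0.14, adjusted p = 5.7e-05), short of the size rule.

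Metabolic genes of hepatocytes rose in 13 of 22 cases (median log2 fold change 1.36), and 26 further genes of that list, among them CYP3A4 and CYP7A1, stayed below the entry rule. SLC10A1, the bile acid importer of hepatocytes, was at 0.28 and 0.33 FPKM on day 7 and 4.74 and 5.52 on day 11 (log2 fold change 4.11 ± 0.46, adjusted p = 2e-08). FBP1, an enzyme of gluconeogenesis, was at 0.58 and 0.53 FPKM on day 7 and 4.81 and 5.54 on day 11 (log2 fold change 3.28 ± 0.27, adjusted p = 2.69e-11). HGD, an enzyme of tyrosine breakdown, had 8 counts on day 7 and 399 on day 11, a ratio of 50.7 (25.5 to 118.0), and ADH4, an alcohol dehydrogenase, 1 and 261, a ratio of 265.0 (47.2 to 10500.0). CPS1, the first enzyme of the urea cycle, was at 2.84 and 2.44 FPKM on day 7 and 6.93 and 7.41 on day 11 (log2 fold change 1.51 ± 0.16, adjusted p = 7.86e-08). Of coagulation and complement genes 8 of 14 rose, led by SERPIND1 and CFI. SERPIND1, heparin cofactor II, was at 0.38 and 0.84 FPKM on day 7 and 12.1 and 14.6 on day 11 (log2 fold change 4.48 ± 0.38, adjusted p = 7.07e-08). C3, the central complement protein, was at 0.36 and 0.33 FPKM on day 7 and 3.66 and 4.34 on day 11 (log2 fold change 3.60 ± 0.38, adjusted p = 2.06e-06). F2, prothrombin, was at 7.28 and 7.71 FPKM on day 7 and 3.95 and 4.97 on day 11, a lower level without a call (log2 fold change -0.68 ± 0.19, adjusted p = 0.00559).

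Of 14 transcription factors of liver and foregut 5 fell and 9 were not called, with a median log2 fold change of -0.32. HNF4A, a nuclear receptor that controls many hepatocyte genes, was at 24.7 and 24.3 FPKM on day 7 and 6.30 and 7.57 on day 11 (log2 fold change -1.75 ± 0.16, adjusted p = 1.29e-07). FOXA2, a pioneer factor of endoderm, was at 8.22 and 7.57 FPKM on day 7 and 2.51 and 3.31 on day 11 (log2 fold change -1.37 ± 0.20, adjusted p = 2.58e-06). FOXA3, a related factor of liver, was at 5.17 and 4.53 FPKM on day 7 and 1.94 and 2.53 on day 11 (log2 fold change -1.05 ± 0.20, adjusted p = 6.29e-05), and its change was short of the size rule without the first library of day 11 (log2 fold change -0.84) or of day 7 (-0.99).

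**Figure D2:**
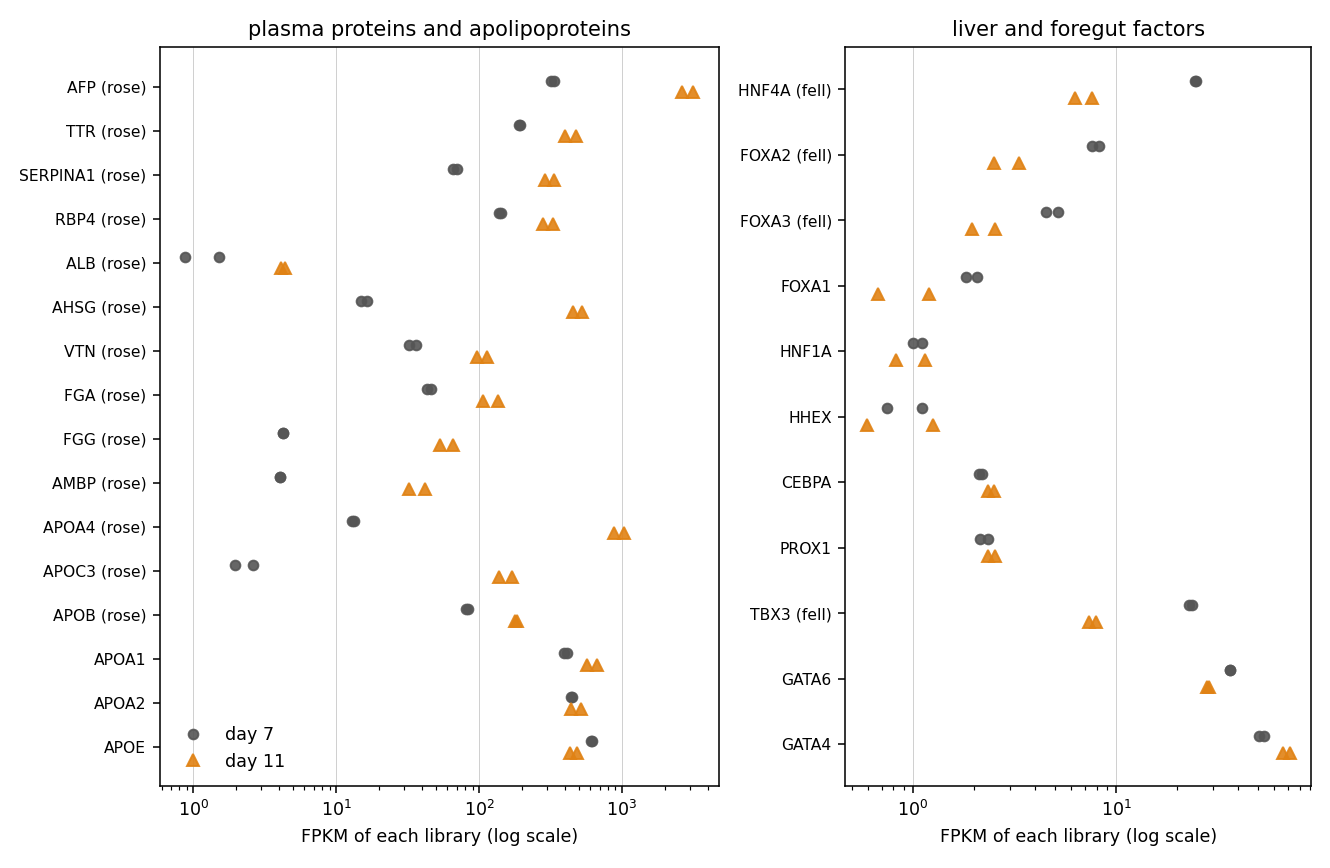
FPKM of each control library (x axis, log scale) for genes of plasma proteins and apolipoproteins (left panel) and of liver and foregut factors (right panel), with circles for day 7 and triangles for day 11, 1 point a library. AFP, APOA4 and AHSG sit higher on day 11 in both libraries, while HNF4A and FOXA2 sit lower.

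The promoters of AFP and FGA are shown because both rose and both hold, in the 250 bases before the start, the letters of a binding motif of HNF1 factors (GTTAAT, then any base, then ATT, searched on both strands, in capitals). The sequences are those of RefSeq on GRCh38.p14, 5′ to 3′ in the direction of transcription, at chr4:73435971-73436220, plus strand for AFP and chr4:154590743-154590992, minus strand for FGA.
AFP: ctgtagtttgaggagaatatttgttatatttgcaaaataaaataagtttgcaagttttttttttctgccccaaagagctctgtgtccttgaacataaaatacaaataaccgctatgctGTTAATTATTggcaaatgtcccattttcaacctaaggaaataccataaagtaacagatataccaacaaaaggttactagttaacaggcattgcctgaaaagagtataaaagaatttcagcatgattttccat
FGA: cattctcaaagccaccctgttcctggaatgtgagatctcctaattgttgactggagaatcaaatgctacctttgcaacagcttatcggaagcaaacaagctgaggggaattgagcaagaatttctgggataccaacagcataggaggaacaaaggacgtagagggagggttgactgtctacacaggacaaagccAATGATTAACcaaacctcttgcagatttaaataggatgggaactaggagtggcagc
Of the 20 plasma protein genes that rose, 16 had an entry among these promoters and 3 of them held the motif (AFP, FGA and PLG). Of all 35116 promoters of this length, 104 (0.296%) held it. A match describes letters only and shows no binding.

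Genes used as markers of intestine and yolk sac moved in part. RBP2, the retinol-binding protein of enterocytes, was at 0.54 and 0.75 FPKM on day 7 and 51.5 and 57.0 on day 11 (log2 fold change 6.42 ± 0.22, adjusted p = 7.29e-20). Of the intestinal genes 4 of 9 rose. MEP1A, a brush border protease, was at 0.24 and 0.22 FPKM on day 7 and 3.57 and 3.82 on day 11 (log2 fold change 4.07 ± 0.34, adjusted p = 1.88e-10). CDX2, the homeodomain factor that defines intestine, stayed near 1 FPKM: 0.69 and 0.42 FPKM on day 7 and 1.17 and 1.11 on day 11 (log2 fold change 1.13 ± 0.36, adjusted p = 0.0158). Its call was lost without the second library of day 7 (adjusted p = 0.223) or either of day 11 (0.07 and 0.0584). SI, sucrase-isomaltase, reached at most 0.04 FPKM, and MUC13 had 0 counts in all 4 libraries. Among yolk sac genes 5 of 13 rose and 3 fell. GPC3, a glypican of fetal liver and yolk sac, was at 167 and 171 FPKM on day 7 and 510.3 and 536 on day 11 (log2 fold change 1.70 ± 0.09, adjusted p = 1.01e-15). CTSV, a lysosomal protease, was at 278 and 284 FPKM on day 7 and 106 and 112 on day 11 (log2 fold change -1.30 ± 0.09, adjusted p = 6.57e-12). CUBN, the endocytic receptor cubilin, was at 8.00 and 8.20 FPKM on day 7 and 3.09 and 3.39 on day 11 (log2 fold change -1.25 ± 0.16, adjusted p = 1.84e-06).

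Genes of heart muscle rose in the same libraries. Of 24 sarcomere genes 16 rose, and the median log2 fold change was 1.47 (range 0.02 to 3.56), so no member had a negative change. Over the alternatives tried, 12 to 16 rose. MYH7 (ENSG00000092054), the beta heavy chain of ventricular and slow muscle, was at 0.34 and 0.33 FPKM on day 7 and 3.71 and 3.81 on day 11 (log2 fold change 3.56 ± 0.80, adjusted p = 0.00276). MYH6, the alpha heavy chain of atrium, was at 31.1 and 40.2 FPKM on day 7 and 88.6 and 152 on day 11 (log2 fold change 1.83 ± 0.67, adjusted p = 0.0475). The libraries of day 11 differed widely in MYH6, and its call was lost without any one of the 4 libraries (adjusted p = 0.0522 to 0.234). These neighbouring genes on chromosome 14 (chr14:23851199-23877486 and chr14:23881947-23904927) are near-identical in long stretches, so the split of reads between them is uncertain.

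MYL3, an essential light chain, was at 5.27 and 7.73 FPKM on day 7 and 38.3 and 47.8 on day 11 (log2 fold change 2.78 ± 0.48, adjusted p = 0.000348). MYOM1, myomesin of the M band, was at 0.82 and 1.12 FPKM on day 7 and 9.57 and 10.8 on day 11 (log2 fold change 3.45 ± 0.48, adjusted p = 5.17e-05). CSRP3, a LIM protein of the Z disc, was at 0.58 and 0.83 FPKM on day 7 and 5.20 and 7.00 on day 11 (log2 fold change 3.14 ± 0.66, adjusted p = 0.00171). MYBPC3, the cardiac myosin-binding protein C, was at 3.12 and 4.15 FPKM on day 7 and 18.6 and 21.3 on day 11 (log2 fold change 2.52 ± 0.44, adjusted p = 0.000441). SMPX, a small muscle protein, was at 6.62 and 7.62 FPKM on day 7 and 27.7 and 37.8 on day 11 (log2 fold change 2.26 ± 0.22, adjusted p = 5.69e-07). In these 5 genes the levels of day 11 were well above those of day 7 in both libraries. TTN, the spring protein titin, was at 2.50 and 2.83 FPKM on day 7 and 5.49 and 4.81 on day 11 (log2 fold change 1.02 ± 0.16, adjusted p = 0.000157), and its change was short of the size rule without the first library of either day (log2 fold change 0.94 and 0.89). Several abundant sarcomere genes were not called. TNNT2, cardiac troponin T, was at 30.2 and 32.5 FPKM on day 7 and 53.6 and 60.3 on day 11 (log2 fold change 0.93 ± 0.15, adjusted p = 0.000125). MYL7, the atrial regulatory light chain, was at 285 and 323 FPKM on day 7 and 321 and 435 on day 11 (log2 fold change 0.38 ± 0.22, adjusted p = 0.211). ACTC1, cardiac actin, was at 91.1 and 101.08 FPKM on day 7 and 129.6 and 167 on day 11 (log2 fold change 0.70 ± 0.19, adjusted p = 0.00982). MYL2, TNNI3 and ACTA1, which mark ventricular or later muscle, did not reach the entry rule.

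The promoters of MYBPC3 and MYOZ2 are shown because both genes rose and both hold a match to the MEF2 motif, named here without its letters and marked in capitals, within 250 bases before the start. MYOZ2, which encodes a calcineurin-binding protein of the Z disc, was at 5.06 and 4.86 FPKM on day 7 and 12.97 and 12.9 on day 11 (log2 fold change 1.45 ± 0.22, adjusted p = 0.000103). The RefSeq sequences lie on GRCh38.p14 at chr11:47352703-47352952, minus strand for MYBPC3 and chr4:119135582-119135831, plus strand for MYOZ2, and both are given in the direction of transcription.
MYBPC3: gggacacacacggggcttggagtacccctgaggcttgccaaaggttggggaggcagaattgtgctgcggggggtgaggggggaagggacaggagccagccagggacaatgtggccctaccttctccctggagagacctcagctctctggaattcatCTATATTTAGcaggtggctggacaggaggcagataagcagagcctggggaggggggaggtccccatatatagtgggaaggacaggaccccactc
MYOZ2: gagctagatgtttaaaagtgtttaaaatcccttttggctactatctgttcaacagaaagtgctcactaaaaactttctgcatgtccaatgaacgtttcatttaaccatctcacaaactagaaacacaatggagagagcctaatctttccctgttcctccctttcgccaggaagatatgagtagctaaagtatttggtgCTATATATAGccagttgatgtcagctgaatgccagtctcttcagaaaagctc
Of the 16 sarcomere genes that rose, 9 had an entry and 4 held a match (MYBPC3, MYOZ2, SMPX and TTN), against 0.515% of all promoters. As above, a match describes letters and not a site in use.

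Cardiac transcription factors changed in both directions: 10 of 23 rose and 2 fell. SHOX2, a homeodomain factor of the sinus node and venous pole, had 0 counts in both libraries of day 7 and 398 and 311 counts on day 11 (5.3 and 4.54 FPKM), at least 125.0-fold higher against the floor of 3 counts per library. TBX18, a T-box factor of the venous pole and the epicardium, was at 3.95 and 4.55 FPKM on day 7 and 65.4 and 50.8 on day 11 (log2 fold change 3.83 ± 0.38, adjusted p = 3.56e-06). HCN4, the pacemaker channel of the sinus node, was at 7.20 and 8.34 FPKM on day 7 and 45.2 and 34.7 on day 11 (log2 fold change 2.43 ± 0.13, adjusted p = 2.24e-11). NKX2-5, which drives working heart muscle, was at 2.23 and 2.22 FPKM on day 7 and 9.40 and 12.6 on day 11 (log2 fold change 2.37 ± 0.21, adjusted p = 4.71e-08). TBX5, an atrial and limb factor, was at 6.25 and 7.78 FPKM on day 7 and 20.5 and 19.4 on day 11 (log2 fold change 1.57 ± 0.26, adjusted p = 0.000215). IRX4, a ventricular factor, was at 0.75 and 0.77 FPKM on day 7 and 3.43 and 3.36 on day 11 (log2 fold change 2.22 ± 0.20, adjusted p = 2.07e-10). HAND1, a basic helix-loop-helix factor of early heart and extraembryonic mesoderm, was at 649 and 646 FPKM on day 7 and 234 and 247 on day 11 (log2 fold change -1.36 ± 0.08, adjusted p = 9.64e-15). TBX3, a T-box repressor of the conduction system that early liver also expresses, was at 23.7 and 22.8 FPKM on day 7 and 7.34 and 7.99 on day 11 (log2 fold change -1.53 ± 0.09, adjusted p = 1.08e-14). GATA4, a zinc finger factor of heart and gut, was at 50.6 and 53.2 FPKM on day 7 and 71.7 and 66.3 on day 11 (log2 fold change 0.48 ± 0.08, adjusted p = 2.85e-05). ISL1, a progenitor and sinus node factor, was at 9.10 and 10.6 FPKM on day 7 and 7.18 and 7.93 on day 11 (log2 fold change -0.32 ± 0.10, adjusted p = 0.0151). Neither GATA4 nor ISL1 passed the size rule.

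Calcium handling and channel genes rose in 9 of 18 cases (median log2 fold change 1.22), and none fell. SLC8A1, the sodium-calcium exchanger, was at 1.92 and 2.49 FPKM on day 7 and 11.5 and 13.8 on day 11 (log2 fold change 2.58 ± 0.42, adjusted p = 0.000191). TRDN, triadin, which anchors the release channel of the sarcoplasmic reticulum, was at 0.71 and 0.89 FPKM on day 7 and 4.84 and 5.63 on day 11 (log2 fold change 2.77 ± 0.24, adjusted p = 1.51e-07). RYR2, the release channel itself, was at 2.55 and 3.06 FPKM on day 7 and 6.79 and 6.49 on day 11 (log2 fold change 1.31 ± 0.14, adjusted p = 3.92e-07). PLN, phospholamban, the inhibitor of the calcium pump, was at 5.94 and 7.97 FPKM on day 7 and 19.8 and 26.2 on day 11 (log2 fold change 1.78 ± 0.34, adjusted p = 0.000938). SLN, sarcolipin, the atrial inhibitor of the same pump, stood higher than PLN on both days by FPKM, at 188 and 192 FPKM on day 7 and 143 and 156 on day 11 (log2 fold change -0.28 ± 0.24, adjusted p = 0.418). NPPB, a natriuretic peptide, was at 3.20 and 3.03 FPKM on day 7 and 5.75 and 7.27 on day 11 (log2 fold change 1.12 ± 0.61, adjusted p = 0.186), and NPPA and CASQ2 did not reach the entry rule. CKM, the muscle creatine kinase, was at 0.55 and 0.77 FPKM on day 7 and 11.3 and 14.1 on day 11 (log2 fold change 4.31 ± 0.65, adjusted p = 0.000156). The skeletal muscle factors MYOD1 and MYF5 had 0 counts in all 4 libraries and MYOG reached at most 0.07 FPKM.

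**Figure D3:**
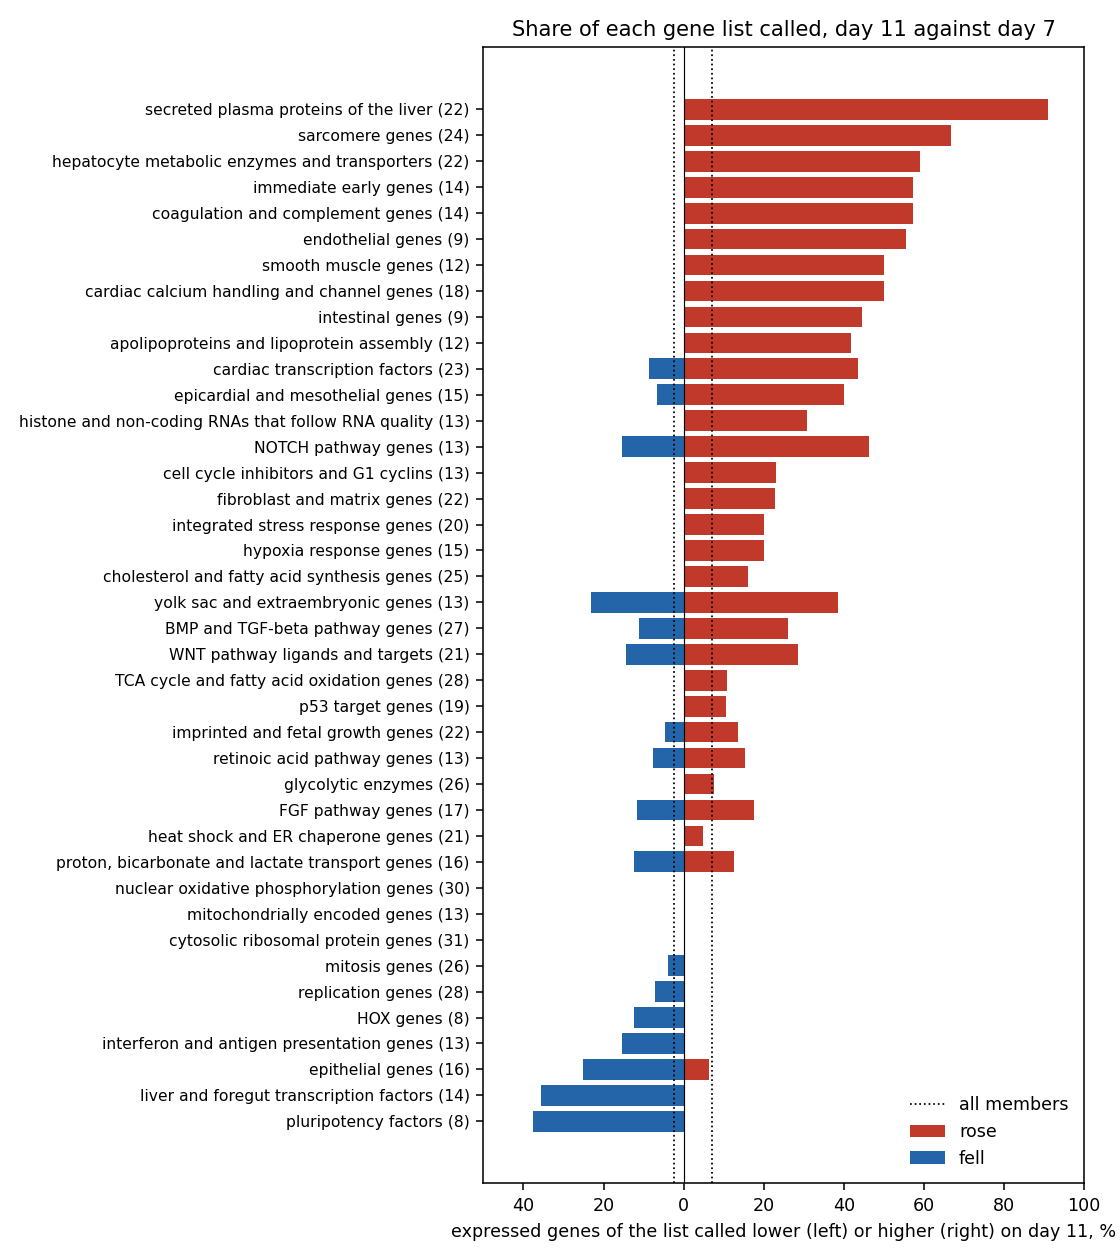
Share of the expressed genes of each list with 8 or more such genes that rose (bars to the right) or fell (bars to the left) from day 7 to day 11 in the control (x axis, %), with their number after each name and dotted lines at 6.96% and 2.52%, the shares over all 14923 genes. Plasma proteins (20 of 22 risen) and sarcomere genes (16 of 24) have the longest bars to the right.

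Smooth muscle genes rose in 6 of 12 cases. DES, desmin, an intermediate filament of all muscle types, was at 15.4 and 18.0 FPKM on day 7 and 126 and 122 on day 11 (log2 fold change 2.96 ± 0.21, adjusted p = 4.23e-08). TAGLN, an actin-binding protein of smooth muscle, was at 27.1 and 30.2 FPKM on day 7 and 88.7 and 91.4 on day 11 (log2 fold change 1.72 ± 0.11, adjusted p = 1.34e-11). CNN1, calponin, was at 6.14 and 6.84 FPKM on day 7 and 22.99 and 21.8 on day 11 (log2 fold change 1.85 ± 0.10, adjusted p = 5.69e-15). ACTG2, enteric smooth muscle actin, was at 0.27 and 0.27 FPKM on day 7 and 3.35 and 2.91 on day 11 (log2 fold change 3.60 ± 0.26, adjusted p = 2.1e-12). ACTA2, the arterial actin, was at 138 and 143 FPKM on day 7 and 149 and 154 on day 11 (log2 fold change 0.18 ± 0.11, adjusted p = 0.253), and MYH11, the smooth muscle myosin that marks mature cells, reached at most 0.21 FPKM.

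Fibroblast and matrix genes were abundant on both days, and 5 of 22 rose, or 3 without the first library of day 7. DCN, decorin, a small proteoglycan that binds collagen, was at 15.3 and 14.2 FPKM on day 7 and 70.4 and 77.3 on day 11 (log2 fold change 2.39 ± 0.45, adjusted p = 0.000729). BGN, the related biglycan, was at 1.69 and 1.63 FPKM on day 7 and 8.71 and 7.81 on day 11 (log2 fold change 2.38 ± 0.26, adjusted p = 1.77e-07). COL1A1, a chain of type I collagen, was at 242 and 226 FPKM on day 7 and 389.5 and 349 on day 11 (log2 fold change 0.72 ± 0.19, adjusted p = 0.00685). COL3A1, type III collagen, was at 1416 and 1350.5 FPKM on day 7 and 1944 and 1945 on day 11 (log2 fold change 0.56 ± 0.16, adjusted p = 0.0127). LUM, lumican, was at 586 and 559 FPKM on day 7 and 477 and 505 on day 11 (log2 fold change -0.15 ± 0.18, adjusted p = 0.567). PDGFRA, a growth factor receptor of mesenchyme, was at 42.0 and 41.4 FPKM on day 7 and 26.1 and 24.5 on day 11 (log2 fold change -0.66 ± 0.08, adjusted p = 2.33e-07). SPARC, a matricellular protein at 533 and 528 FPKM on day 7 and 996 and 1030.3 on day 11, lay on the size threshold (log2 fold change 1.00 ± 0.09, adjusted p = 1.07e-10), and 8 of 12 alternatives put it just below. POSTN, periostin, was at 18.3 and 17.0 FPKM on day 7 and 28.2 and 35.8 on day 11 (log2 fold change 0.93 ± 0.24, adjusted p = 0.00775).

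Epicardial and mesothelial genes rose in 6 of 15 cases and 1 fell. UPK3B, a uroplakin of mesothelium, was at 3.63 and 2.76 FPKM on day 7 and 10.4 and 9.78 on day 11 (log2 fold change 1.74 ± 0.17, adjusted p = 1.41e-09). BNC1, a zinc finger factor of mesothelium, was at 25.1 and 25.2 FPKM on day 7 and 54.2 and 50.4 on day 11 (log2 fold change 1.12 ± 0.13, adjusted p = 8.85e-07). LRRN4, a leucine-rich membrane protein of mesothelium, was at 13.6 and 16.5 FPKM on day 7 and 39.9 and 36.1 on day 11 (log2 fold change 1.40 ± 0.12, adjusted p = 1.22e-09). WT1, the epicardial zinc finger factor, was at 9.03 and 9.87 FPKM on day 7 and 16.1 and 14.5 on day 11 (log2 fold change 0.76 ± 0.13, adjusted p = 4.76e-05). KRT19, a keratin that this list shares with epithelium, was at 291 and 286 FPKM on day 7 and 125 and 145 on day 11 (log2 fold change -1.02 ± 0.07, adjusted p = 5.7e-13), short of the size rule without the first library of day 11 (log2 fold change -0.90). MSLN, mesothelin, stayed under the entry rule with at most 1.23 FPKM.

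Of 21 endothelial genes 9 reached the entry rule and 5 of them rose, all at low levels. PLVAP, a protein of endothelial diaphragms, was at 2.86 and 2.82 FPKM on day 7 and 10.6 and 11.1 on day 11 (log2 fold change 2.00 ± 0.17, adjusted p = 5.63e-11). CDH5, the endothelial cadherin, was at 0.67 and 0.43 FPKM on day 7 and 1.48 and 1.48 on day 11 (log2 fold change 1.52 ± 0.24, adjusted p = 7.5e-06). KDR, a receptor of vascular endothelial growth factor that early mesoderm also carries, was at 113 and 112 FPKM on day 7 and 68.2 and 81.3 on day 11 (log2 fold change -0.52 ± 0.16, adjusted p = 0.021). TEK, the angiopoietin receptor, was at 27.2 and 27.2 FPKM on day 7 and 27.7 and 28.5 on day 11 (log2 fold change 0.12 ± 0.20, adjusted p = 0.708). Of blood genes only 4 of 20 were members. HBE1, embryonic globin, was at 1.85 and 1.49 FPKM on day 7 and 0.11 and 0.18 on day 11, with 58 counts in all on day 7 and 5 on day 11, a ratio of 11.4 (4.62 to 36.5) toward day 7. KLF1, an erythroid factor, was at 1.5 and 1.38 FPKM on day 7 and 0.13 and 0.32 on day 11 (log2 fold change -2.63 ± 0.59, adjusted p = 0.000822), and PTPRC, the pan-leukocyte marker, reached at most 0.01 FPKM.

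Outside these tissues few marker genes were seen. Of 21 neural and neural crest genes 7 were members, 2 rose and 3 fell. STMN2, a microtubule regulator of neurons, was at 0.36 and 0.46 FPKM on day 7 and 23.2 and 23.7 on day 11 (log2 fold change 5.89 ± 0.28, adjusted p = 2.01e-11), and the defining markers SOX1, PAX6, SOX10 and ELAVL3 stayed at or under 0.19 FPKM in all 4 libraries. OTX2, a factor of forebrain and of anterior endoderm, was at 4.95 and 4.02 FPKM on day 7 and 0.21 and 0.54 on day 11 (log2 fold change -3.52 ± 0.28, adjusted p = 3.53e-11). ZIC2 was at 5.02 and 5.23 FPKM on day 7 and 0.42 and 0.48 on day 11 (log2 fold change -3.45 ± 0.21, adjusted p = 4.53e-14). NGFR, the low-affinity neurotrophin receptor, which mesenchyme also carries, was at 0.05 and 0.12 FPKM on day 7 and 4.74 and 5.51 on day 11 (log2 fold change 5.89 ± 0.31, adjusted p = 2.77e-13). Of 14 pancreas, lung and thyroid markers 1 was a member, and INS, NKX2-1 and SFTPC were among 7 with 0 counts in all 4 libraries.

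Of the genes of earlier stages few reached the entry rule. Of 16 pluripotency genes 8 were members, and 3 fell. LIN28A, an RNA-binding protein that blocks let-7 maturation, was at 166 and 162 FPKM on day 7 and 25.4 and 28.2 on day 11 (log2 fold change -2.55 ± 0.10, adjusted p = 6.49e-17), one of the 12 largest falls. SALL4, a zinc finger factor, was at 16.2 and 15.8 FPKM on day 7 and 7.53 and 6.47 on day 11 (log2 fold change -1.13 ± 0.12, adjusted p = 7.57e-09). Of 18 primitive streak genes only WNT3 reached the entry rule. Of 32 HOX genes 8 were members, 7 of them of the HOXB cluster, and HOXB6 fell from 27.0 and 26 to 8.93 and 8.53 FPKM (log2 fold change -1.54 ± 0.14, adjusted p = 4.05e-09).

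In the list of epithelial genes, which includes CDH2, 4 of 16 fell and only CDH2 rose. CDH2, N-cadherin, a junction protein of heart muscle and liver, was at 34.6 and 36.8 FPKM on day 7 and 80.8 and 80.0 on day 11 (log2 fold change 1.24 ± 0.08, adjusted p = 8.63e-14). CDH1, E-cadherin, was at 14.5 and 12.8 FPKM on day 7 and 24.2 and 26.05 on day 11 (log2 fold change 0.95 ± 0.16, adjusted p = 0.000218), just short of the size rule. KRT7, a keratin of simple epithelia, was at 4.25 and 3.73 FPKM on day 7 and 0.44 and 0.73 on day 11 (log2 fold change -2.72 ± 0.43, adjusted p = 0.000125). GRHL2, a factor of epithelial identity, was at 1.91 and 1.48 FPKM on day 7 and 0.67 and 0.61 on day 11 (log2 fold change -1.33 ± 0.21, adjusted p = 5.26e-06). EPCAM, the epithelial adhesion molecule, was at 30.3 and 28.5 FPKM on day 7 and 16.7 and 19.2 on day 11 (log2 fold change -0.65 ± 0.10, adjusted p = 6.27e-06).

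Nearly all genes of cell division were slightly lower on day 11. Of 28 replication genes 2 fell (1 to 3 with one library left out), yet 27 had an adjusted p under 0.05 with a lower level on day 11, and the median log2 fold change was -0.57. Of 26 mitosis genes 1 fell and 25 had such a p, with a median of -0.61. Over all 14923 genes, 18.1% were lower with an adjusted p under 0.05. CENPA, the histone of centromeres, was at 18.0 and 16.3 FPKM on day 7 and 7.30 and 6.07 on day 11 (log2 fold change -1.29 ± 0.16, adjusted p = 4.95e-07). MKI67, the marker of cycling cells, was at 15.8 and 15.8 FPKM on day 7 and 9.38 and 8.91 on day 11 (log2 fold change -0.72 ± 0.10, adjusted p = 4.39e-06). TOP2A, a topoisomerase of mitosis, was at 64.0 and 65.1 FPKM on day 7 and 37.4 and 40.3 on day 11 (log2 fold change -0.66 ± 0.07, adjusted p = 1.43e-08). GINS4, a subunit of the replicative helicase, was at 4.10 and 4.87 FPKM on day 7 and 1.97 and 1.9 on day 11 (log2 fold change -1.15 ± 0.12, adjusted p = 3.51e-09). In contrast, CDKN1A, the cell cycle inhibitor p21, was at 0.86 and 1.31 FPKM on day 7 and 6.73 and 8.30 on day 11 (log2 fold change 2.84 ± 0.21, adjusted p = 1.34e-10). CDKN2B, an inhibitor of the G1 kinases, was at 0.39 and 0.76 FPKM on day 7 and 1.41 and 2.03 on day 11 (log2 fold change 1.61 ± 0.26, adjusted p = 9.09e-06). CCND1, cyclin D1, was at 11.4 and 10.2 FPKM on day 7 and 37.4 and 35.0 on day 11 (log2 fold change 1.82 ± 0.08, adjusted p = 4.34e-18). Of 19 p53 target genes 2 rose, CDKN1A and PHLDA3, and the median was 0.15.

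Of 26 glycolytic genes 2 rose, a share near the 6.96% of all genes. PDK4, the kinase that shuts off pyruvate dehydrogenase, was at 4.79 and 4.42 FPKM on day 7 and 11.9 and 10.6 on day 11 (log2 fold change 1.36 ± 0.10, adjusted p = 2.02e-12). LDHA, lactate dehydrogenase A, was at 18.6 and 19.7 FPKM on day 7 and 34.8 and 38.6 on day 11 (log2 fold change 1.01 ± 0.10, adjusted p = 2.96e-08), and without the first library of day 7 or the second of day 11 it was short of the size rule (log2 fold change 0.93 and 0.91). Among glucose transporters SLC2A1 was at 81.7 and 81.2 FPKM on day 7 and 124 and 129 on day 11 and SLC2A3 at 162 and 159.8 FPKM on day 7 and 72.2 and 88.5 on day 11, changes of opposite sign that both missed the size rule (0.70 ± 0.20 and -0.93 ± 0.12 on the log2 scale). Of 28 genes of fatty acid oxidation and the TCA cycle 3 rose, or 1 without the first library of day 7 or the second of day 11, among them CPT1A, which admits fatty acids to mitochondria, at 2.21 and 2.30 FPKM on day 7 and 5.06 and 5.15 on day 11 (log2 fold change 1.24 ± 0.11, adjusted p = 2.04e-10). Nuclear genes of oxidative phosphorylation had a median log2 fold change of 0.20, and 11 of 30 were higher with an adjusted p under 0.05 though below the size rule, against 21.4% of all genes higher at that p.

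Of 25 genes of cholesterol and fatty acid synthesis 4 rose and 17 were higher with an adjusted p under 0.05, as were 21.4% of all genes (median log2 fold change 0.55). MSMO1, a sterol oxidase, was at 72.9 and 77.9 FPKM on day 7 and 162 and 187 on day 11 (log2 fold change 1.28 ± 0.12, adjusted p = 3.02e-08). HMGCS1, which makes the precursor of sterols, was at 73.1 and 76.5 FPKM on day 7 and 132 and 147 on day 11 (log2 fold change 0.97 ± 0.09, adjusted p = 4.76e-10). Among transport genes CA2, a cytosolic carbonic anhydrase, was at 23.1 and 20.7 FPKM on day 7 and 7.44 and 7.60 on day 11 (log2 fold change -1.48 ± 0.12, adjusted p = 1.11e-11). CA12, a surface carbonic anhydrase, was at 0.58 and 0.39 FPKM on day 7 and 2.30 and 1.97 on day 11 (log2 fold change 2.22 ± 0.32, adjusted p = 1.33e-05). SLC16A1, a lactate carrier, was at 64.9 and 63.1 FPKM on day 7 and 32.1 and 35.9 on day 11 (log2 fold change -0.84 ± 0.08, adjusted p = 1.27e-10).

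Metallothioneins, small proteins that bind zinc and copper, rose in 5 of 6 cases, the same number under all 12 alternatives. They lie together on chromosome 16, between 56642111 and 56718108 (GRCh37). MT2A was at 3.64 and 4.44 FPKM on day 7 and 11.7 and 12.7 on day 11 (log2 fold change 1.66 ± 0.25, adjusted p = 1.99e-05). MT1E was at 2.00 and 3.53 FPKM on day 7 and 10.1 and 12.0 on day 11 (log2 fold change 2.04 ± 0.31, adjusted p = 4.07e-05). MT1X was at 1.12 and 1.13 FPKM on day 7 and 1.67 and 1.61 on day 11 (log2 fold change 0.61 ± 0.28, adjusted p = 0.0889). MT1G had 1 count on day 7 and 293 on day 11, a ratio of 298.0 (53 to 11800.0), and MT1H 3 and 144, a ratio of 48.8 (16.4 to 239.0). The genes are near-identical copies, so reads may have been split or lost among them and their single levels are uncertain. The promoters of MT2A (chr16:56608334-56608583, plus strand) and MT1H (chr16:56669564-56669813, plus strand) are printed because each holds a dense set of the core of the metal response element (TGCACNC or TGCGCNC, both strands, in capitals where found).
MT2A: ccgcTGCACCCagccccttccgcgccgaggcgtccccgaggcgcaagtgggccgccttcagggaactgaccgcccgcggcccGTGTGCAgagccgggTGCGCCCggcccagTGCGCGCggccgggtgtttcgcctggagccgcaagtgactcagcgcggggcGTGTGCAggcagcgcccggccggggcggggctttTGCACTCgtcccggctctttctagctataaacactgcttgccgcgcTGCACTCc
MT1H: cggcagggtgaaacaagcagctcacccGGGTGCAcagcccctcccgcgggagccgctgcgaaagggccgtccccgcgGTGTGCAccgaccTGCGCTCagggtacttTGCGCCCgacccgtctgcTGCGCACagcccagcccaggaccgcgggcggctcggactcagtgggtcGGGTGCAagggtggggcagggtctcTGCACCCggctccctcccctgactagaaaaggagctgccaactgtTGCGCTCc
MT2A held 7 matches and MT1H 8. At least 1 match is common, in 24.8% of the 35116 promoters, at least 3 occurred in 1.58% and at least 7 in 0.0313%. Of the 5 metallothioneins that rose, only these 2 had an entry among the promoters.

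Immediate early genes, which respond quickly to growth factors and stretch, rose in 8 of 14 cases (median log2 fold change 1.13), and 7 or 8 rose under every alternative. EGR1, a zinc finger factor, was at 1.27 and 1.31 FPKM on day 7 and 7.35 and 7.23 on day 11 (log2 fold change 2.56 ± 0.21, adjusted p = 8.43e-11). FOS was at 0.91 and 0.89 FPKM on day 7 and 2.67 and 2.96 on day 11 (log2 fold change 1.70 ± 0.24, adjusted p = 1e-06). JUN was at 9.90 and 10.2 FPKM on day 7 and 20.8 and 22.1 on day 11 (log2 fold change 1.16 ± 0.10, adjusted p = 6.77e-11). DUSP1, a phosphatase that ends kinase signals, was at 4.48 and 5.11 FPKM on day 7 and 12.2 and 14.4 on day 11 (log2 fold change 1.54 ± 0.14, adjusted p = 2.17e-10). CTGF, a matrix-associated target of YAP and of TGF-beta, was at 18.2 and 21.1 FPKM on day 7 and 48.5 and 52.5 on day 11 (log2 fold change 1.43 ± 0.12, adjusted p = 1.12e-09). The promoter of EGR1, on GRCh38.p14 at chr5:138465229-138465478, plus strand, is shown because it is the 1 of 7 matched promoters of these 8 genes with matches to the CArG motif of serum response factor, named here without its letters.
EGR1: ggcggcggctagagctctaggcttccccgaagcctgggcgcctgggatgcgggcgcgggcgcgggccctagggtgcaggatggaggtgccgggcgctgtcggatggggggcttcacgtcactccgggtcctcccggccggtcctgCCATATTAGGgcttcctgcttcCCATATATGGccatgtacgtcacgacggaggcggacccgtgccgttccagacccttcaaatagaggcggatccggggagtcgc
It holds 2 matches, in capitals, and 1.16% of all promoters hold at least 1.

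Of 20 genes of the integrated stress response 4 rose, among them STC2, a secreted glycoprotein, at 0.42 and 0.64 FPKM on day 7 and 2.49 and 2.50 on day 11 (log2 fold change 2.29 ± 0.16, adjusted p = 9.6e-13). TRIB3, a pseudokinase, was at 0.64 and 1.14 FPKM on day 7 and 2.65 and 2.76 on day 11 (log2 fold change 1.64 ± 0.25, adjusted p = 3.55e-06). Of 21 chaperones HSPB1, a small heat shock protein abundant in muscle, rose from 59.3 and 64.0 to 130.0 and 137 FPKM (log2 fold change 1.18 ± 0.10, adjusted p = 2.04e-10), and 10 others were lower with an adjusted p under 0.05, as were 18.1% of all genes. HSPA8, the constitutive chaperone, was at 220.4 and 230.2 FPKM on day 7 and 156 and 163 on day 11 (log2 fold change -0.43 ± 0.07, adjusted p = 1.61e-05). Of 15 hypoxia response genes 3 rose, among them CA12 and LOX, a collagen cross-linking enzyme at 3.13 and 3.36 FPKM on day 7 and 15.6 and 16.04 on day 11 (log2 fold change 2.35 ± 0.11, adjusted p = 6.58e-17). Of 13 interferon and antigen presentation genes 2 fell, IRF1 and HLA-B, and both changes were short of the size rule without the first library of day 11 (log2 fold change -0.94 and -0.91). Of 13 histone and non-coding RNAs often used to judge RNA quality, 4 histone genes rose. HIST1H2AC was at 1.71 and 2.35 FPKM on day 7 and 6.77 and 6.58 on day 11 (log2 fold change 1.77 ± 0.18, adjusted p = 1.36e-09). MALAT1 had a log2 fold change of 0.16, and the part of RNA quality in the results was not tested.

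Of 21 WNT pathway genes 6 rose and 3 fell. The 6 were ligands and secreted inhibitors, and the 3 were the ligand WNT6 and both LGR receptors. WNT2, a ligand of heart and lung mesoderm, was at 0.61 and 0.76 FPKM on day 7 and 4.37 and 4.27 on day 11 (log2 fold change 2.71 ± 0.44, adjusted p = 0.000199). WNT2B, its relative, was at 0.24 and 0.32 FPKM on day 7 and 1.51 and 1.33 on day 11 (log2 fold change 2.40 ± 0.17, adjusted p = 1.23e-12). The secreted inhibitor SFRP2 was at 0.70 and 0.65 FPKM on day 7 and 10.2 and 11.7 on day 11 (log2 fold change 4.08 ± 0.36, adjusted p = 2.59e-07). DKK1, which blocks the LRP co-receptors, was at 4.44 and 5.19 FPKM on day 7 and 38.6 and 34.2 on day 11 (log2 fold change 2.98 ± 0.25, adjusted p = 1.98e-07). SFRP5 was at 38.1 and 39.8 FPKM on day 7 and 113 and 97.2 on day 11 (log2 fold change 1.501 ± 0.13, adjusted p = 1.06e-08). DKK3 was at 5.76 and 6.16 FPKM on day 7 and 18.5 and 17.6 on day 11 (log2 fold change 1.66 ± 0.09, adjusted p = 4.62e-15). Each of these inhibitors was higher in both libraries of day 11 than in either of day 7. LGR5, a receptor of R-spondins, was at 2.92 and 2.42 FPKM on day 7 and 0.26 and 0.60 on day 11 (log2 fold change -2.58 ± 0.27, adjusted p = 5.67e-09). LGR4, the related receptor, was at 114 and 114 FPKM on day 7 and 51.0 and 52.9 on day 11 (log2 fold change -1.06 ± 0.10, adjusted p = 9.59e-10). AXIN2, a general target of the pathway, had a log2 fold change of -0.29 and was not called.

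BMP and TGF-beta genes also split. Of 27 genes 7 rose and 3 fell. INHBA, a subunit of activin, was at 0.35 and 0.24 FPKM on day 7 and 1.25 and 1.70 on day 11 (log2 fold change 2.40 ± 0.29, adjusted p = 6.97e-07). GDF10 was at 0.42 and 0.48 FPKM on day 7 and 2.72 and 2.23 on day 11 (log2 fold change 2.52 ± 0.31, adjusted p = 9.73e-08). TGFBI, a matrix protein induced by TGF-beta, was at 10.4 and 8.95 FPKM on day 7 and 26.8 and 30.5 on day 11 (log2 fold change 1.64 ± 0.16, adjusted p = 4.2e-07). MSX1, a homeodomain factor downstream of BMP, was at 95.1 and 92.1 FPKM on day 7 and 29.2 and 30.2 on day 11 (log2 fold change -1.59 ± 0.09, adjusted p = 5.1e-15). MSX2, its relative, was at 28.0 and 27.0 FPKM on day 7 and 10.3 and 11.4 on day 11 (log2 fold change -1.28 ± 0.09, adjusted p = 1.08e-12). BMP4, the ligand, was at 118 and 119 FPKM on day 7 and 74.0 and 73.1 on day 11 (log2 fold change -0.62 ± 0.09, adjusted p = 1.41e-06). ID1, a direct target, was at 118 and 114 FPKM on day 7 and 56.3 and 61.5 on day 11 (log2 fold change -0.91 ± 0.08, adjusted p = 3.29e-10). BMP4 and ID1 were not called.

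In the NOTCH pathway 6 of 13 genes rose and 2 fell. The ligand JAG1 was at 11.7 and 12.3 FPKM on day 7 and 29.8 and 28.9 on day 11 (log2 fold change 1.35 ± 0.10, adjusted p = 3.43e-12). The target HEY1 was at 0.90 and 1.23 FPKM on day 7 and 13.3 and 12.6 on day 11 (log2 fold change 3.66 ± 0.16, adjusted p = 9.72e-18). HEYL, a relative of HEY1 found in vessel walls, was at 0.50 and 0.39 FPKM on day 7 and 3.52 and 2.39 on day 11 (log2 fold change 2.80 ± 0.25, adjusted p = 1.89e-10). The ligand DLL1 was at 5.47 and 4.75 FPKM on day 7 and 1.63 and 1.92 on day 11 (log2 fold change -1.46 ± 0.15, adjusted p = 3.16e-09). LFNG, a glycosyltransferase that tunes the receptor, was at 5.91 and 5.53 FPKM on day 7 and 0.97 and 1.36 on day 11 (log2 fold change -2.23 ± 0.20, adjusted p = 9.45e-11). In the retinoic acid pathway CYP26A1, which degrades retinoic acid, had 269 counts on day 7 and 4 on day 11, a ratio of 66.2 (25.5 to 245.0) toward day 7. Of 17 FGF pathway genes 3 rose and 2 fell, both of them receptors. FGFR1 was at 34.7 and 32.7 FPKM on day 7 and 12.0 and 11.1 on day 11 (log2 fold change -1.48 ± 0.08, adjusted p = 4.16e-15). FGFR4 was at 11.4 and 11.0 FPKM on day 7 and 3.94 and 4.34 on day 11 (log2 fold change -1.37 ± 0.14, adjusted p = 1.39e-09). The ligand FGF9 was at 1.04 and 0.87 FPKM on day 7 and 3.42 and 2.59 on day 11 (log2 fold change 1.72 ± 0.17, adjusted p = 1.16e-09).

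Of 22 imprinted and fetal growth genes 3 rose. IGFBP5, a binding protein of insulin-like growth factors, was at 3.59 and 3.35 FPKM on day 7 and 131 and 118 on day 11 (log2 fold change 5.23 ± 0.32, adjusted p = 8.11e-09). DLK1, a paternally expressed relative of NOTCH ligands that fetal liver and mesenchyme carry, was at 4.80 and 3.97 FPKM on day 7 and 146 and 158 on day 11 (log2 fold change 5.19 ± 0.23, adjusted p = 1.14e-10). IGF2, the fetal growth factor, was at 451 and 425 FPKM on day 7 and 847 and 815 on day 11 (log2 fold change 0.99 ± 0.18, adjusted p = 0.000398). H19, the non-coding RNA of the same locus, was at 2213 and 2178 FPKM on day 7 and 2856 and 2891 on day 11 (log2 fold change 0.46 ± 0.19, adjusted p = 0.0864). HMGA2, a chromatin protein of fetal tissue, was at 28.0 and 28.2 FPKM on day 7 and 42.5 and 37.2 on day 11 (log2 fold change 0.57 ± 0.07, adjusted p = 1.44e-07). Cytosolic ribosomal protein genes lay between -0.35 and 0.06 on the log2 scale, and none was called.

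The genes with the largest changes at 5 FPKM or more included others outside the lists. G0S2, an inhibitor of fat breakdown, was at 2.30 and 2.32 FPKM on day 7 and 94.3 and 100.73 on day 11 (log2 fold change 5.46 ± 0.30, adjusted p = 3e-10). Among the largest falls, KCNH1, a voltage-gated potassium channel, was at 5.52 and 6.45 FPKM on day 7 and 0.46 and 0.63 on day 11 (log2 fold change -3.39 ± 0.22, adjusted p = 2.46e-13). RGS13, a regulator of G protein signals, was at 6.08 and 5.54 FPKM on day 7 and 0.37 and 0.73 on day 11 (log2 fold change -3.34 ± 0.26, adjusted p = 2.98e-10). CYB5D1 was at 199.7 and 189.5 FPKM on day 7 and 26.4 and 28.8 on day 11 (log2 fold change -2.75 ± 0.11, adjusted p = 8.9e-16). It lies at chr17:7761064-7765600 on the plus strand of GRCh37 and inside the minus strand gene LSMD1 (chr17:7760003-7788556), which was at 87.9 and 83.4 FPKM on day 7 and 19.2 and 18.2 on day 11 (log2 fold change -2.13 ± 0.09, adjusted p = 7.09e-18). TMEM88, an inhibitor of WNT signals in early heart cells, lies next to them (chr17:7758383-7759417) and was at 325 and 307 FPKM on day 7 and 119.6 and 111 on day 11 (log2 fold change -1.39 ± 0.10, adjusted p = 5.51e-12). No source used here says if counting took account of strand, so the level of CYB5D1 cannot be told apart from that of LSMD1. The short RNAs SNORD116-2 and MIR3153 were also among the 12 largest falls, but had only 20 and 17 counts on day 7 and lost their calls without one of the libraries (adjusted p up to 0.168 and 0.146).

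The levels of earlier days were set beside these changes for some genes. Those of days 3 and 5 come from a table made separately and were not tested against those of days 7 and 11. AFP was at 0 FPKM in both libraries of day 3, at 0.2 and 0.86 on day 5, 317 and 336 on day 7 and 2635 and 3158 on day 11. APOA1 was at 179 and 216 FPKM on day 5 already. HNF4A was at 0.68 and 0.67 on day 3, 25.9 and 29.0 on day 5, 24.7 and 24.3 on day 7 and 6.3 and 7.57 on day 11. MYL7 was already at 411 and 421 on day 5, whereas MYH6 went from 3.52 and 2.8 on day 5 to 88.6 and 152 on day 11. HAND1 was at 290.4 and 232 on day 3 and highest on day 7, with 649 and 646 FPKM. TOP2A was at 83.8 and 70.8 on day 3, 26.4 and 29.2 on day 5, 64.0 and 65.1 on day 7 and 37.4 and 40.3 on day 11.

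**Figure D4:**
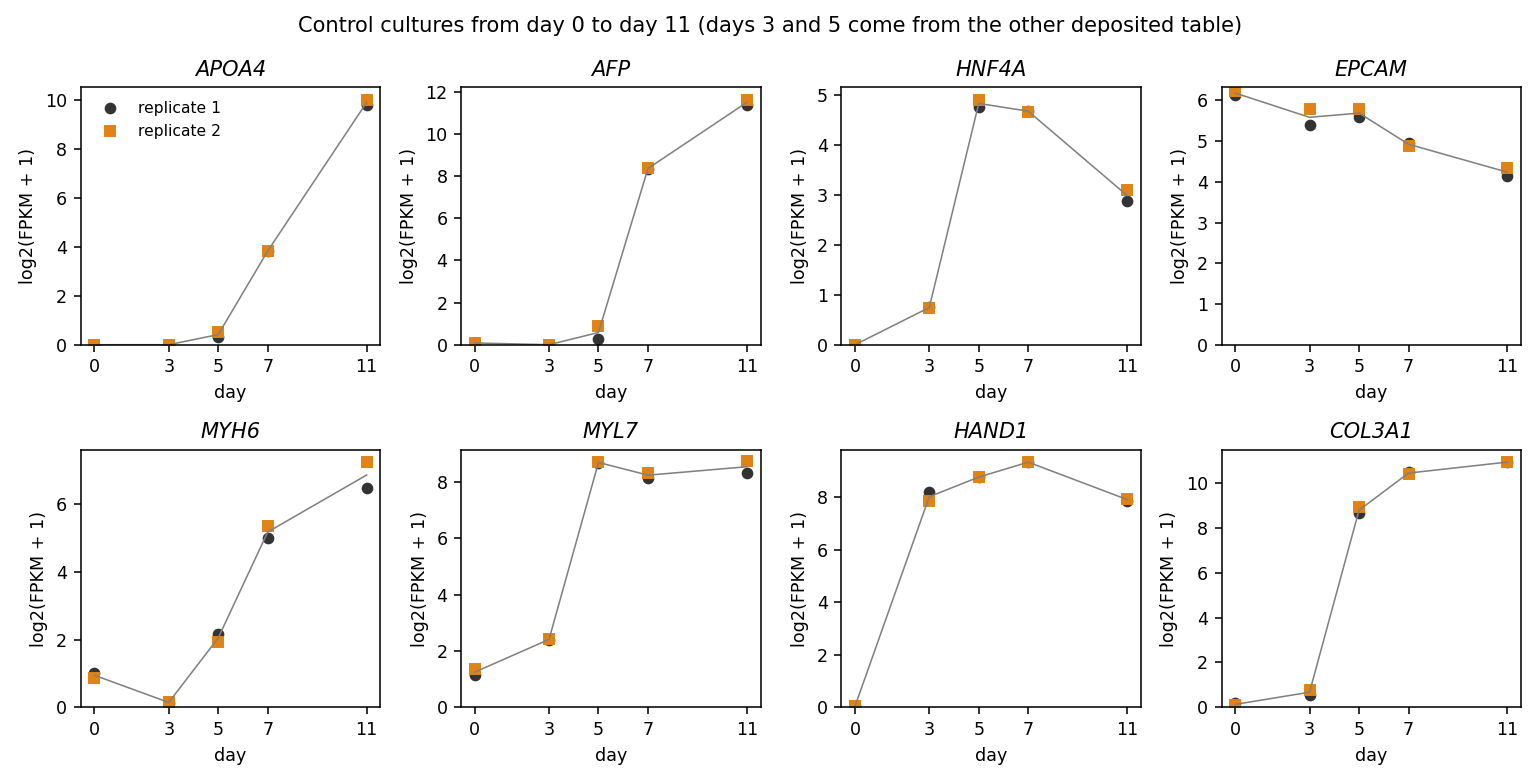
Levels of 8 genes as log2(FPKM + 1) (y axis) in both control libraries of each day (x axis, day of culture, with undifferentiated cells at day 0), 1 point a library and lines through the means. AFP climbs to 2635 and 3158 FPKM on day 11, while HNF4A and HAND1 are lower on day 11 than on day 7.

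The change of the control was then tested against the change in each treated culture, as the difference of the log2 changes, from the same edgeR fit and with the same threshold. In 826 genes (5.54%) it differed from that with IWP2, 653 (4.38%) with the higher change in the control and 173 (1.16%) with the lower. Against HCl 2470 genes differed (16.6%), 1417 higher (9.5%) and 1053 lower (7.06%), and against NaHCO3 1708 (11.4%), 981 higher (6.57%) and 727 lower (4.87%). The 3 differences share the control libraries, so they are not independent. Of the 1038 genes that rose in the control, 350 also rose with IWP2, 467 with HCl and 441 with NaHCO3. Of the 376 that fell, 149, 174 and 205 also fell. In the same order, 25, 97 and 33 of the risen genes fell, and 2, 24 and 2 of the fallen genes rose. The share of all genes that rose or fell in each treated culture is not given here. These counts therefore describe the overlap and show no excess over that share. For 193 risen and 143 fallen genes no difference was called in any of the 3.

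Among the gene lists, sarcomere genes stood on different sides with HCl and the other treatments. Of 24 sarcomere genes the control change was higher in 14 against IWP2 and in 17 against NaHCO3, while against HCl it was lower in 12 and higher in 1. Without the first NaHCO3 library of day 7, 9 differed in place of 17. MYL7 went from 650.3 ± 113 to 2999.8 ± 36.1 FPKM with HCl (difference -1.92 ± 0.32, adjusted p = 0.000198) and from 27.5 ± 12.7 to 8.90 ± 0.62 FPKM with NaHCO3 (difference 1.88 ± 0.35, adjusted p = 0.000854), each mean ± SD of 2 libraries. NKX2-5 went from 89.8 ± 5.09 to 77.1 ± 7.00 FPKM with IWP2 (difference 2.60 ± 0.25, adjusted p = 7.46e-07) and from 0.56 ± 0.25 to 0.08 ± 0.07 FPKM with NaHCO3 (difference 5.02 ± 0.77, adjusted p = 5.56e-05). Of 22 fibroblast and matrix genes the control change was higher in 14 against HCl. COL1A1 went from 140.4 ± 14.6 to 46.9 ± 0.19 FPKM there (difference 2.20 ± 0.27, adjusted p = 9.49e-06). Of 26 mitosis genes it was higher in 24 against HCl, with medians of -0.61 in the control and -2.01 with HCl. Of 31 ribosomal protein genes 29 had a lower control change against NaHCO3. HAND1, which fell in the control, went from 119.6 ± 0.83 to 188 ± 0.12 FPKM with HCl (difference -2.11 ± 0.11, adjusted p = 1.14e-15).

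Plasma protein genes differed from IWP2 in 17 of 22 cases, all with the higher change in the control, but that count rests in part on 1 library. The second IWP2 library of day 7 held liver transcripts that were far lower in the first, for example APOA4 at 43.7 FPKM against 0.72. Without it 9 of 22 differed, and hepatocyte enzymes went from 13 to 6, coagulation and complement genes from 7 to 3, apolipoproteins from 6 to 4 and sarcomere genes from 14 to 11. TTR kept its call in all 16 alternatives: it went from 41.9 ± 13.7 to 15.5 ± 0.70 FPKM with IWP2 (difference 2.69 ± 0.39, adjusted p = 0.000359). The other 2 treatments were closer to the control in plasma protein genes. Against HCl the control change was higher in 3 of 22 and lower in 4. Against NaHCO3 it was higher in 6 and lower in 1. The median log2 fold change of the list was 2.25 in the control, 2.48 with HCl, 1.93 with NaHCO3 and -0.94 with IWP2.

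In 86 of the risen genes the control change was above that of all 3 treatments, and in 12 of the fallen genes below. These genes were first chosen by their control change, and the same control libraries enter all 3 differences. The choice itself thus favours these directions, and the counts describe and support nothing. The genes below are examples from these sets. HEY1, the NOTCH target, went from 5.04 ± 0.43 to 9.07 ± 1.34 FPKM with IWP2, from 5.71 ± 0.35 to 2.46 ± 0.04 FPKM with HCl and from 3.27 ± 0.45 to 3.48 ± 0.24 FPKM with NaHCO3. The difference was 2.82 ± 0.21, adjusted p = 1.83e-11 for IWP2. It was 4.77 ± 0.22, adjusted p = 3.33e-17 for HCl and 3.43 ± 0.22, adjusted p = 1.03e-12 for NaHCO3. JAG1, the ligand, differed in the same direction by 1.57 ± 0.13, adjusted p = 6.4e-10 for IWP2, by 3.37 ± 0.13, adjusted p = 2.15e-17 for HCl and by 1.34 ± 0.14, adjusted p = 1.92e-08 for NaHCO3. KCNH1, which fell in the control, went from 2.49 ± 0.14 to 0.80 ± 0.01 FPKM with IWP2, from 0.66 ± 0.14 to 2.10 ± 0.42 FPKM with HCl and from 1.88 ± 0.14 to 2.66 ± 0.01 FPKM with NaHCO3. Its differences were -1.76 ± 0.33, adjusted p = 0.00025 for IWP2, -5.16 ± 0.32, adjusted p = 8.65e-14 for HCl and -4.04 ± 0.30, adjusted p = 2.42e-11 for NaHCO3. These 9 calls were kept in all 16 alternatives.

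**Figure D5:**
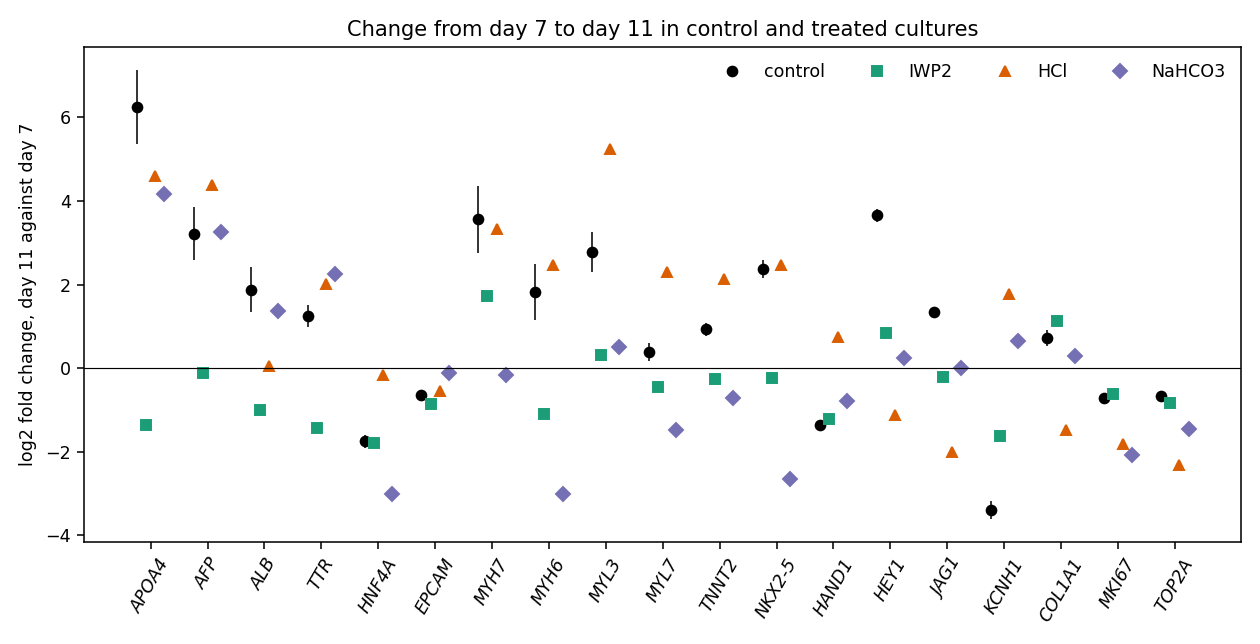
Log2 fold change from day 7 to day 11 (y axis) of named genes (x axis) in the control and in cultures with IWP2, HCl or NaHCO3 (markers), from the fit of all 26 libraries, with bars of 1 standard error for the control. MYL7 lies at 0.38 in the control, at 2.30 with HCl and at -1.49 with NaHCO3.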

How the data were processed

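RNA was extracted with RNAiso Plus and made into libraries with a VAHTS kit, per the labels' protocols. The submitters' processing notes name cutadapt 1.9.1, HISAT2 2.0.1, HTSeq 0.6.1 and GRCh37. The authors deposited 2 values per gene and library: whole-number counts of reads, and FPKM, which divide by gene length and library size. Whether counting used the strand is not given in the sources used here. Genes with at least 1 FPKM in 2 or more of the 26 libraries were tested by their counts with edgeR 4.0.16 in R 4.3.3. The test used TMM scaling and a robust quasi-likelihood fit over 26 libraries in 13 groups, with Benjamini-Hochberg adjustment over all 18451 genes fitted. Standard errors of log2 fold changes were taken from the F statistic of that test. FPKM set which genes are described and give the levels. The alternatives were DESeq2 1.42.0, RLE scaling, no filter, the compared libraries alone, adjustment over the 14923 genes, limma 3.58.1 on log2(FPKM + 1) and log2(FPKM + 0.1), a replicate block and leaving out each library. Counts with this design were also simulated over 18451 genes, with 50 genes changed at each fold, all with expected counts of at least 50. The test called 58% of genes changed by 2-fold, 100% at 3-, 4- and 8-fold, and 5 unchanged genes. A change of exactly 2-fold lies on the size threshold, so the 58% largely reflects that threshold. The simulated spread followed the trend with level only, without differences between genes, so these results may be too favourable.

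The genes named by rule were a panel of 30 markers from AFP to CDX2, the 12 largest rises and falls among called genes at 5 FPKM or more in one day's mean, the 5 highest levels of each day, up to 5 called genes with the largest change in each list, and up to 5 with the largest difference from each treatment at 5 FPKM or more in the mean of a compared group. Some genes that the rule names are not reported here. Others, such as AHSG, FGG, MYOZ2 and TMEM88, were chosen after their values were seen. The genes described, the lists and the tests were chosen with earlier results of these data known. Promoters came from RefSeq on GRCh38.p14, matched by symbol, and coordinates of genes from the deposited table (GRCh37).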

Additional observations from a re-analysis of the deposited data

Results flagged for a closer look

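The change from day 7 to day 11 differed between the control and each treatment by the test of the difference in edgeR, in 826 genes for IWP2, 2470 for HCl and 1708 for NaHCO3. Differences below are log2 changes of the control minus those of the treatment.

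Against IWP2, large differences among called genes at 5 FPKM or more in the mean of at least 1 group were in FETUB (10.24), SERPINA7 (9.16), MT1G (7.88) and APOA4 (7.60). Without the second IWP2 library of day 7, all 4 lost the call: FETUB was at 3.83 (adjusted p = 0.987), SERPINA7 at 3.66 (0.991), MT1G at 3.24 (0.997) and APOA4 at 2.67 (0.238). That library held liver transcripts that were far lower in its replicate (APOA4 at 43.7 against 0.72 FPKM). TTR, at 2.69, and NKX2-5, the cardiac homeodomain factor, at 2.60, were called without it.

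Against HCl, at that level, the largest were in SFRP2 (7.36), AC090044.2 (6.85), DLK1 (6.58), RNU7-20P (6.31) and C1orf168 (6.25). RNU7-20P, a pseudogene of 62 bases, had 5 counts in the control on day 7 and 6 on day 11, and lost the call in 10 of 16 alternatives. Smaller differences of named genes were MYL7 at -1.92, HAND1 at -2.11 and COL1A1 at 2.20.

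Against NaHCO3, at that level, they were in RNU7-140P (8.33), SNORD104 (-7.68), CKM (6.18), HGF (5.98) and AP000304.1 (5.95). CKM lost the call in 9 of 16 alternatives, and without the first NaHCO3 library of day 7 it was at 3.59 (adjusted p = 0.704). RNU7-140P without the second NaHCO3 library of day 7 was at 3.47 and lost the call. AP000304.1 lost the call in several alternatives, among them no filter (edgeR adjusted p = 0.0567) and the compared libraries alone (0.0527). Without the first NaHCO3 library of day 7 it was at 5.53 and was not called. Fitted values of AC090044.2, RNU7-20P, RNU7-140P, AP000304.1 and SNORD104 depend on the prior count, since both libraries of a treated group were at 0. MYL7 was at 1.88 and NKX2-5 at 5.02.

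Among named genes below that level, C3 (8.27), APOH (7.20) and KNG1 (6.66) had larger differences from HCl than some of these. So had IRX4 (6.50) from NaHCO3, and ADH4 (9.76) and KNG1 (8.73) from IWP2. ADH4 was at 4.55 without the second IWP2 library of day 7, and lost the call. APOH was at 5.95 without the second HCl library of day 7, and lost the call. Its fitted value also depends on the prior count, since both control libraries of day 7 were at 0.

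In the NOTCH pair, the HEY1 differences were 2.82 for IWP2, 4.77 for HCl and 3.43 for NaHCO3, and those of JAG1 1.57, 3.37 and 1.34. KCNH1 was at -1.76, -5.16 and -4.04.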

How the results depend on the processing

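With limma on log2(FPKM + 1) fewer genes were called: 604 rose, 218 fell and 822 changed in either direction. With it 536 genes differed from IWP2 (398 with the higher control change), 656 had a lower control change than HCl, and 1055 differed from NaHCO3 (586 higher, 469 lower). It kept 592 of the 1038 rises and 202 of the 376 falls. A pseudocount of 1 shrinks the change of low genes. Leaving out one library gave 937 to 991 rises and 341 to 406 falls, and kept 900 to 931 and 293 to 346 of the original calls. DESeq2 gave 1020 rises and 358 falls, and no alternative called a risen gene as fallen or a fallen gene as risen. Replicate numbers did not pair the libraries: deviations of same-numbered control libraries correlated at 0.019 (IWP2 -0.082, HCl -0.016, NaHCO3 -0.028), and the replicate block gave 1030 rises and 379 falls.

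Leaving out one library, the control change was higher in 522 to 662 genes and lower in 152 to 201 against IWP2, 1326 to 1420 and 935 to 1090 against HCl, and 800 to 1120 and 572 to 1031 against NaHCO3. Of 247 called genes that were named, 182 kept the call in all 12 alternatives. Genes that were not called changed sign. MT-CO2 (0.046) was at -0.023 with both limma fits and from -0.034 to 0.118 with one library left out. FGB (0.082) ranged from -0.124 to 0.263 and RNU7-20P (0.329) from -0.136 to 0.697 with one library left out. The cause of these shifts was not tested.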

Other observations

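Several gene groups were listed only after their values were seen, so their counts describe and support nothing. Hedgehog signalling passes from ligands such as IHH through the receptor PTCH1 to GLI factors, and 6 of 16 such genes fell while none rose. PTCH1, which is also a general target of the pathway, was at 21.5 and 19.2 FPKM on day 7 and 3.74 and 3.82 on day 11 (log2 fold change -2.36 ± 0.09, adjusted p = 7.1e-19). GLI1, a further target, was at 5.39 and 5.13 FPKM on day 7 and 1.01 and 1.13 on day 11 (log2 fold change -2.23 ± 0.19, adjusted p = 4.66e-11). FOXF1, a forkhead factor of visceral mesoderm, was at 13.2 and 14.0 FPKM on day 7 and 5.65 and 5.02 on day 11 (log2 fold change -1.28 ± 0.17, adjusted p = 8.1e-07). Both libraries of day 11 lay below both of day 7 for these genes. Of 17 genes of the LIN28 and let-7 axis, in which LIN28 proteins block the maturation of let-7 microRNAs, 7 fell. TRIM71, a let-7 target of early embryos, was at 27.4 and 26.2 FPKM on day 7 and 9.56 and 9.24 on day 11 (log2 fold change -1.44 ± 0.08, adjusted p = 4.27e-15). PRTG, protogenin, was at 102 and 95.2 FPKM on day 7 and 21.2 and 20.6 on day 11 (log2 fold change -2.17 ± 0.07, adjusted p = 7.36e-20).

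Of 24 basement membrane genes 9 rose and 1 fell. LAMA4, a laminin chain of vessels and muscle, was at 0.04 and 0.08 FPKM on day 7 and 1.07 and 1.06 on day 11 (log2 fold change 4.17 ± 0.44, adjusted p = 1.58e-06). LAMA2, the laminin chain of muscle, was at 0.58 and 0.76 FPKM on day 7 and 3.05 and 2.93 on day 11 (log2 fold change 2.22 ± 0.18, adjusted p = 7.46e-09). LAMA1, the laminin chain of the early embryo, was at 46.0 and 45.9 FPKM on day 7 and 15.4 and 15.2 on day 11 (log2 fold change -1.52 ± 0.10, adjusted p = 9.65e-12). COL4A1, a common type IV collagen chain, was at 46.4 and 46.3 FPKM on day 7 and 162 and 151 on day 11 (log2 fold change 1.82 ± 0.09, adjusted p = 1.13e-15). COL4A2, its partner chain, was at 36.2 and 36.0 FPKM on day 7 and 115 and 107 on day 11 (log2 fold change 1.69 ± 0.10, adjusted p = 1.22e-13).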
